A study of Rattus norvegicus with 20 samples.

Results

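Janus kinases (JAKs) and the SOCS proteins that restrain them were followed in the blood of susceptible and resistant rats prior and posterior to APAP (acetaminophen). The members were the 4 kinase genes Jak1, Jak2, Jak3 and Tyk2 and the 4 inhibitor genes Socs1, Socs2, Socs3 and Cish, and a probe set was taken where the platform's annotation gave it 1 gene symbol and that symbol was one of these. This gave 11 probe sets of 31042, 5 for the kinases and 6 for the inhibitors, with 2 each for Jak1, Socs1 and Cish. Each probe set is a group of short oligonucleotides that gives 1 signal for a transcript.

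Blood RNA of male Wistar rats, an outbred strain, was hybridized to 20 Affymetrix Rat Genome 230 2.0 arrays, 5 in each of 4 sub-groups: susceptible rats after (SA) and before (S) APAP, and resistant rats after (RA) and before (R) APAP. The methods state that the same 10 rats were bled at both times: predose blood was drawn a week before dosing, with no fast mentioned, and postdose blood 24 h after 1200 mg/kg APAP by mouth in carboxymethyl cellulose, for which the rats had been fasted. The study named as susceptible the 5 rats with the highest and as resistant the 5 with the lowest serum alanine aminotransferase after dosing, so that the sub-groups were set by the response to the drug itself. Both sub-groups were therefore dosed alike. Ages were not given, and no array held blood of a vehicle-treated rat. The labels give the retro-orbital plexus as the bleeding site at both times, while the methods give the inferior vena cava for postdose blood. APAP, fasting and the day of bleeding, and the site if the methods hold, cannot be told apart in any postdose against predose comparison. Red cells were lysed before extraction. Of 9 neutrophil genes, 8 were above the bacterial trp control probe sets on every array. So were all 7 monocyte, 10 T cell, 4 B cell, 8 natural killer cell and 5 platelet genes. All 5 erythroid genes were too, with the globin gene Hbb at 207885 to 385330, so that red cell RNA was still measured. Signals are linear intensities scaled to an array median of 1000, and array pairs correlated at 0.940 to 0.986 across probe sets of mean signal above that median.

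Cytokine receptors have no kinase of their own and rely on JAKs bound to their tails. A cytokine brings 2 receptor chains together, the JAKs phosphorylate each other and the receptor, and STAT proteins dock there, are phosphorylated and move to the nucleus. Among the genes that STATs switch on are those of the SOCS family, whose proteins bind the JAKs or the receptors and shut the signal down, so that SOCS transcripts are widely read as traces of recent cytokine signalling in leukocytes.

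STATs bind DNA at GAS elements, the letters TTCNNNGAA, and the promoters of Cish and Socs1 are shown because they held such letters. RefSeq promoters of the build GRCr8 were at hand for 4 of the 8 members (Cish, Socs1, Socs3 and Jak2), and the 250 bases before each start were searched on both strands, GAS reading alike on either. Below they are written 5′ to 3′ in the direction of the gene, and capitals mark the matches. The Cish window lies at chr8:116850719-116850968 on the plus strand and the Socs1 window at chr10:5389324-5389573, also on the plus strand.
Cish: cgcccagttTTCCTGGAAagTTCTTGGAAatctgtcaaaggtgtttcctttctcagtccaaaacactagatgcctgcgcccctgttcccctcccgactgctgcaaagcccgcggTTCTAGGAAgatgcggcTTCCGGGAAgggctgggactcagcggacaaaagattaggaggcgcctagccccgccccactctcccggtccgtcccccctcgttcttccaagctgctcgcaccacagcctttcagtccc
Socs1: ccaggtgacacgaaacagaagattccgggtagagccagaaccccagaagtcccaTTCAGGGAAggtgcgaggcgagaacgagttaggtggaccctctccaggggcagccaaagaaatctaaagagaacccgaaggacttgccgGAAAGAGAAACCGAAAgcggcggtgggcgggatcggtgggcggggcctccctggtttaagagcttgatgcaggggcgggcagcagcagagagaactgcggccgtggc
The Cish window held 4 GAS matches, which begin 241, 230, 136 and 119 bases before the start. Of 33469 rat promoters of this length, 2566 (7.67%) held at least 1 GAS match, 140 (0.418%) at least 2 and 7 (0.0209%) at least 3. The Socs1 window held 1 GAS match, 196 bases before the start, and 2 overlapping matches to the interferon-stimulated response element bound by STAT and IRF complexes (GAAA, 2 bases of any kind, then GAAA again), 107 and 101 bases before it. At least 2 such matches were found in 69 promoters (0.206%), in a search added after these sequences had been read. The windows of Socs3 and Jak2, which also rose in susceptible rats, held neither motif and are not shown. A match is a run of letters and was not tested for binding.

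After APAP, the transcripts of 3 inhibitors and of 1 kinase rose in susceptible rats. Cish rose on both of its probe sets, Socs1 on 1 of 2, and Socs3 and Jak2 on their only one, so that 5 of 11 member probe sets were higher in SA than in S at a Benjamini-Hochberg adjusted p under 0.05 (limma) and none was lower. Over all 30747 probe sets tested, 3.86% were called higher in this comparison, 2.8% lower and 6.66% in either direction. Of the 5 member calls, only that of Cish on 1378586_at held in every alternative fit given below. In resistant rats 0 of 11 passed the same threshold in RA against R, where 5.11% of all probe sets did, and 2 of 11 had an unadjusted p under 0.05 (17.1% of all). All 11 had passed the filter on low values. The median change over the 11 was 0.40 on the log2 scale in susceptible and 0.20 in resistant rats, beside 0.01 and -0.01 over all probe sets tested. In whole blood, more cells of a type and more RNA per cell cannot be told apart.

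**Figure D1:**
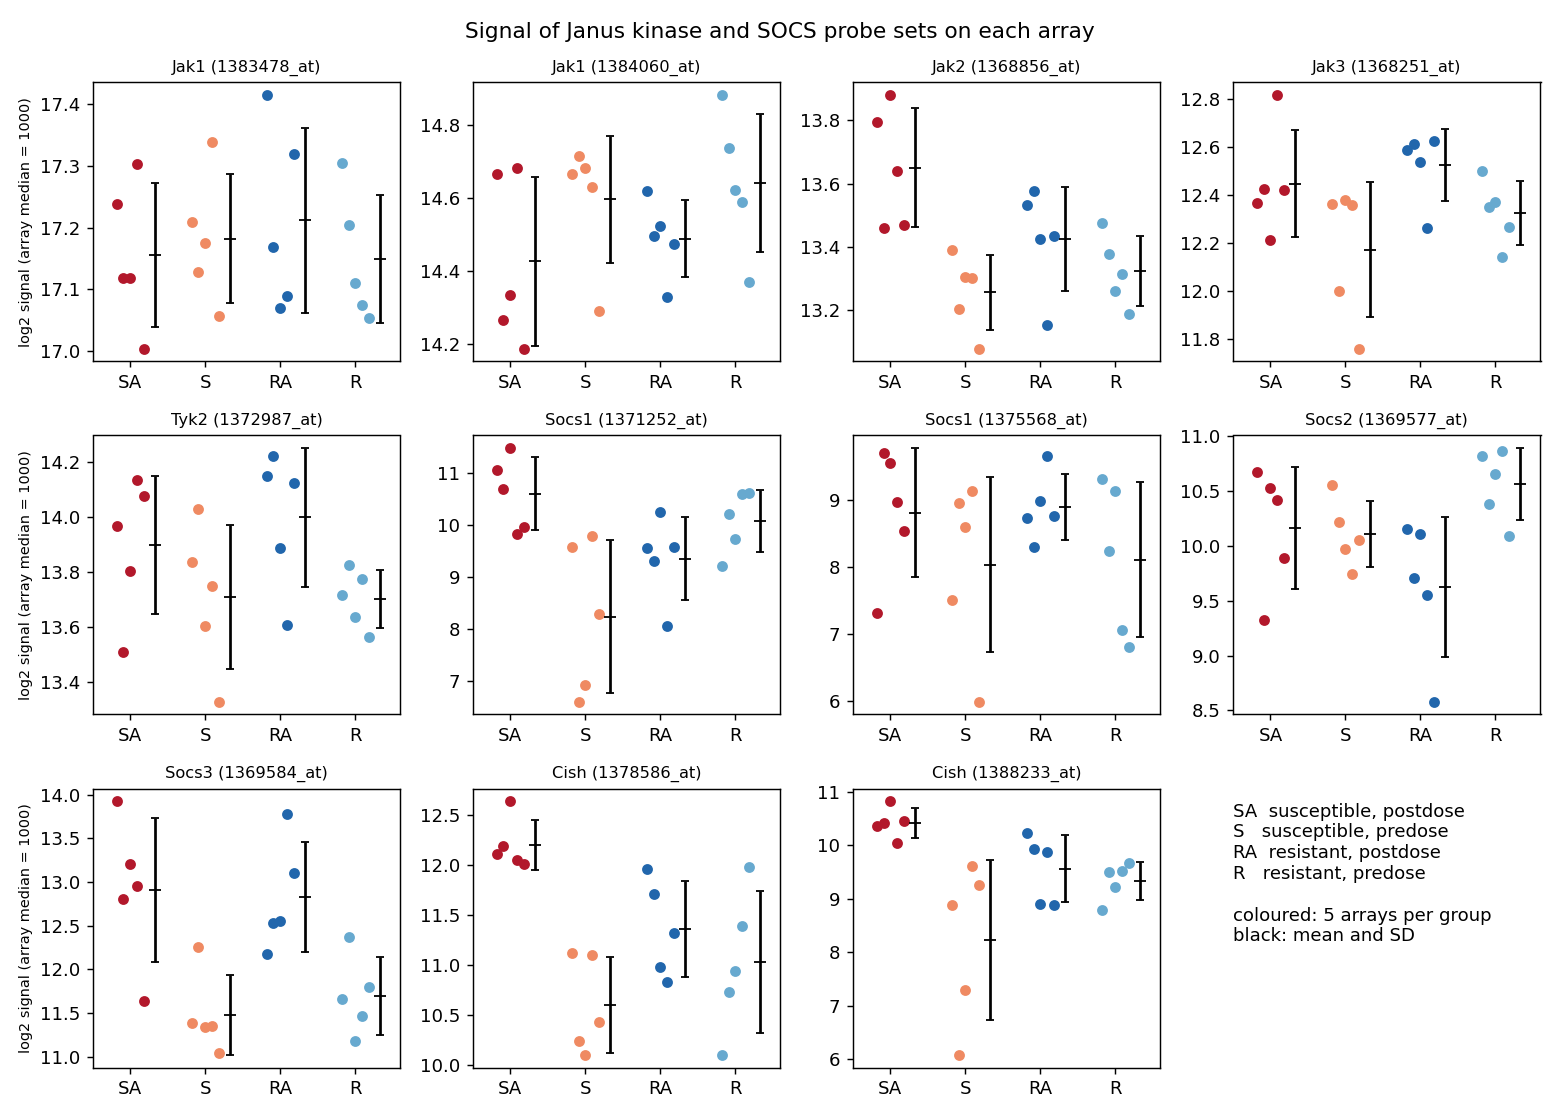
Log2 signal (array median = 1000) of each of the 11 probe sets, 1 panel each, in SA, S, RA and R. Coloured points are the 5 arrays of a sub-group and black bars the mean and SD. The 5 SA arrays lie above all S arrays for Jak2, for Socs1 on 1371252_at and for both Cish probe sets.

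Cish, the first SOCS member found, is switched on by STAT5 and occupies the sites where STAT5 docks on cytokine receptors. On its brighter probe set, 1378586_at, signals were 4430, 4667, 6357, 4236 and 4107 in SA, against 2220, 1207, 1098, 2187 and 1378 in S. Every SA array was above every S array. The log2 means were 12.20 ± 0.25 in SA and 10.60 ± 0.48 in S (SD, n = 5 each), a difference of 1.60 (SE 0.31, adjusted p = 0.00402, limma), or 3.04-fold. In resistant rats the same probe set gave 3988, 3337, 2022, 1816 and 2555 in RA, against 1098, 1703, 1970, 2691 and 4035 in R. Those ranges overlapped, and the difference of 0.33 (SE 0.31, adjusted p = 0.676, limma) had a 95% interval of -0.33 to 0.98.

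The other Cish probe set, 1388233_at, gave 1308, 1368, 1803, 1051 and 1405 in SA, against 472.1, 67.63, 157.1, 781.2 and 609.3 in S. The sub-groups were again apart, while the S arrays spread widely and reached down into the range of the bacterial trp control probe sets, whose highest signal on any array was 278.7. The difference was 2.19 (SE 0.51, adjusted p = 0.0137, limma), 4.57-fold. In RA it measured 1199, 976.9, 475.7, 938.7 and 468.4, and in R 439.6, 721.2, 591.9, 732.5 and 816.7. Both ranges began near the same level and overlapped, with a difference of 0.23 (SE 0.51, adjusted p = 0.89, limma). Across the 20 arrays, the Cish probe sets correlated with each other at 0.789 in log2 signal. Ordered by mean log2 signal on the brighter one, SA (12.20) was followed by RA (11.36), R (11.03) and S (10.60), and of these neighbours SA and RA did not overlap while RA and R, and R and S, did.

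Socs1, a STAT target that blocks the catalytic site of JAKs and is known above all as the brake on interferon-gamma signalling, had 2 probe sets that did not move alike. On 1371252_at signals were 2138, 1660, 2854, 910 and 999.6 in SA, against 764.2, 97.51, 121.5, 888.9 and 315.2 in S. The lowest SA array was just above the highest S array, and the S arrays spread over most of the signal scale of this probe set. The difference was 2.37 (SE 0.58, adjusted p = 0.0186, limma), 5.15-fold, and it rests in part on S arrays near the bacterial controls. RA gave 754.1, 635.8, 1224, 268.5 and 762.2, against 596, 1190, 851.7, 1546 and 1575 in R. Here the ranges overlapped, and the sign was the other way, -0.72 (SE 0.58, adjusted p = 0.605, limma).

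The second Socs1 probe set, 1375568_at, stayed below the array median on all 20 arrays. It measured 158.9, 828.5, 750, 503.3 and 369.7 in SA, against 181.5, 493.8, 385.8, 564.4 and 63.64 in S. The sub-groups overlapped almost wholly, and the difference of 0.78 (SE 0.62, adjusted p = 0.565, limma) was equalled by one of 0.78 (SE 0.62, adjusted p = 0.603, limma) between RA and R. The 2 Socs1 probe sets correlated at -0.06 over the 20 arrays, whereas 1371252_at correlated at 0.757 and 0.784 with the Cish probe sets. The rise of Socs1 therefore stands on 1 probe set only.

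Socs3, which binds gp130 and the granulocyte colony-stimulating factor receptor and restrains STAT3, passed the threshold in susceptible rats and missed it in resistant rats. Signals were 15528, 7155, 9473, 7936 and 3203 in SA, against 2687, 4912, 2602, 2622 and 2115 in S. One SA array fell within the S range and the other 4 were above it. The difference was 1.43 (SE 0.37, adjusted p = 0.0268, limma), 2.69-fold. RA gave 4632, 5920, 6034, 14021 and 8796, against 3240, 5296, 2327, 2833 and 3571 in R. All but one RA array were above every R array, with a difference of 1.13 (SE 0.37, adjusted p = 0.0971, limma). The change in susceptible rats exceeded that in resistant rats by 0.29 with a 95% interval of -0.81 to 1.40 (adjusted p = 0.963, limma), so a difference between the sub-groups was not shown for Socs3.

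Socs2, the STAT5 target that limits growth hormone signalling, did not pass in either sub-group. It measured 1628, 640.6, 1474, 1364 and 946.2 in SA, against 1501, 1190, 1001, 854.5 and 1061 in S. SA arrays lay on both sides of the S arrays, and the difference was 0.06 (SE 0.29, adjusted p = 0.948, limma). RA arrays gave 1140, 836.3, 1105, 751.9 and 382.3, against 1809, 1334, 1613, 1863 and 1088 in R. Only the lowest R array lay within the RA range, and the difference of -0.94 (SE 0.29, adjusted p = 0.0792, limma) was the nearest to the threshold among the members in resistant rats. Socs2 and Socs3 were the probe sets with an unadjusted p under 0.05 in RA against R, and their signs were opposite.

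**Figure D2:**
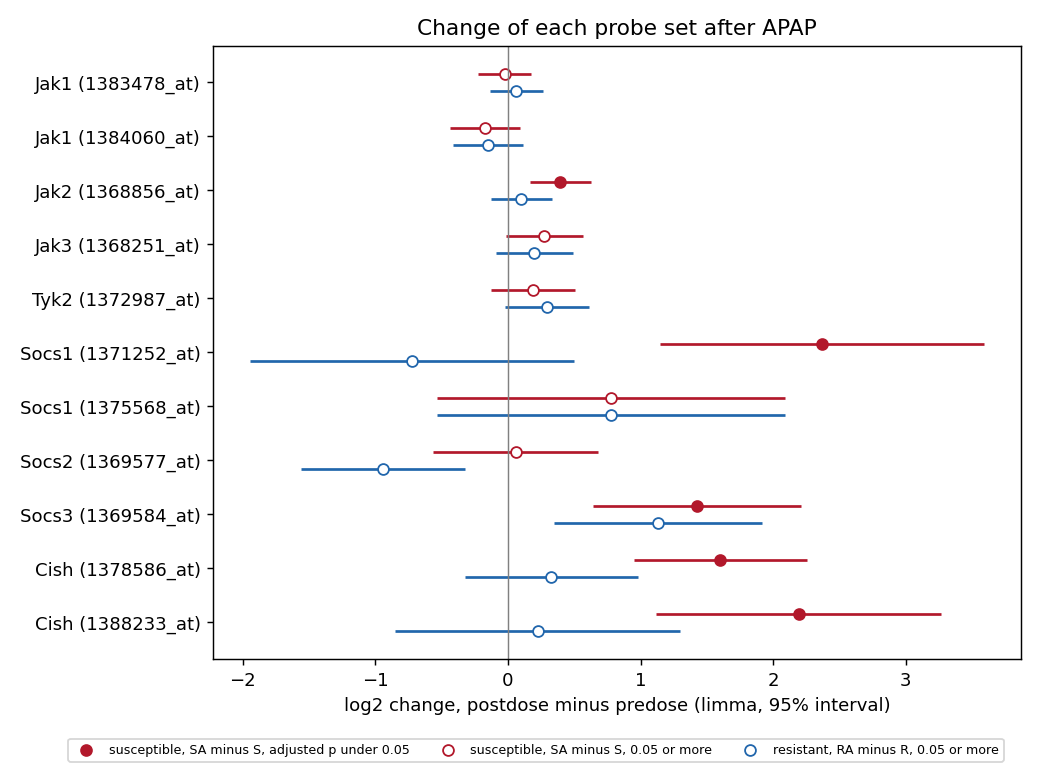
Log2 change of each probe set, postdose minus predose, in susceptible (red, SA minus S) and resistant rats (blue, RA minus R), with 95% intervals from limma. Filled points passed an adjusted p of 0.05: the 5 in susceptible rats run from 0.40 for Jak2 to 2.37 for Socs1 on 1371252_at, and no point of resistant rats is filled.

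Among the kinases, Jak2, which serves the receptors of erythropoietin, thrombopoietin, growth hormone and granulocyte-macrophage colony-stimulating factor, rose a little in susceptible rats. Its signals were 14226, 11273, 15080, 12774 and 11348 in SA, against 10723, 9430, 10110, 10094 and 8641 in S. The sub-groups did not overlap, although the change was small, 0.40 (SE 0.11, adjusted p = 0.0357, limma) or 1.31-fold. RA gave 11855, 12207, 10982, 9105 and 11074, against 11386, 10636, 9811, 10173 and 9322 in R. These ranges overlapped, with a difference of 0.10 (SE 0.11, adjusted p = 0.721, limma).

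Jak1, the partner kinase of gp130, interferon and common gamma chain receptors, did not pass on either probe set. On 1383478_at its 20 arrays ranged between 131399 and 174788, and the 95% interval of the change was -0.22 to 0.17 in susceptible and -0.14 to 0.26 in resistant rats. The dimmer Jak1 probe set, 1384060_at, ranged between 18638 and 30222, with changes of -0.17 (SE 0.13, 95% interval -0.43 to 0.09, adjusted p = 0.521, limma) in susceptible and -0.15 (SE 0.13, adjusted p = 0.613, limma) in resistant rats.

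Jak3, which works only with the common gamma chain of lymphocyte receptors, measured 4743 to 7207 in SA with a median of 5481, against 3469 to 5332 in S with a median of 5247. The ranges overlapped, and the change was 0.28 (SE 0.14, adjusted p = 0.294, limma). In resistant rats it was 0.20 (SE 0.14, adjusted p = 0.524, limma). Tyk2, the kinase of the type I interferon and interleukin-12 receptors, measured 11659 to 17954 in SA, against 10274 to 16688 in S. Its change was 0.19 (SE 0.15, adjusted p = 0.558, limma) in susceptible and 0.30 (SE 0.15, adjusted p = 0.335, limma) in resistant rats. For Jak3 and Tyk2 the upper ends of the 95% intervals were 0.57 and 0.51 in susceptible rats and 0.49 and 0.61 in resistant rats, and all 4 intervals took in 0.

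All SA arrays lay above all S arrays on 4 of 11 probe sets (Jak2, Socs1 on 1371252_at and both of Cish), as they did on 3.93% of all probe sets. In resistant rats RA lay wholly above R on 0 of 11 (3.24% of all). With single arrays left out, Cish kept its calls, whereas Jak2 (0.34 to 0.44 over these fits), Socs1 on 1371252_at (1.96 to 2.75) and Socs3 (1.17 to 1.74) lost theirs without SA replicate 1, without SA replicate 3 and without some S arrays, at adjusted p up to 0.103, 0.0583 and 0.0787. With SA replicates 1 and 3 left out together, a setting added after the data had been seen, Cish on 1378586_at kept its call (1.49, adjusted p = 0.0465, limma) and the other 4 lost theirs. The fit without them gave 0.27 for Jak2 (adjusted p = 0.292), 1.92 for Socs1 on 1371252_at (adjusted p = 0.174), 0.99 for Socs3 (adjusted p = 0.234) and 2.08 for Cish on 1388233_at (adjusted p = 0.0975). The same single call remained when only the SA and S arrays were fitted and under the methods' t-test after adjustment.

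The sub-groups were also set against each other. Before dosing, 0 of 11 member probe sets differed between S and R after adjustment (0.00329% of all probe sets did, limma on the 10 predose arrays) and 2 of 11 had an unadjusted p under 0.05 (3.74% of all). These were Socs1 on 1371252_at, lower in S by -1.84 on the log2 scale (SE 0.66, adjusted p = 1), and Socs2, by -0.46 (SE 0.20, adjusted p = 1). Cish on 1388233_at stood at -1.11 (SE 0.63, adjusted p = 1), and its 2 lowest arrays of all 20, at 67.63 and 157.1, were both S arrays. The predose levels of S enter the change in susceptible rats as well, so that these differences and that change are not independent.

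After dosing, 0 of 11 differed between SA and RA after adjustment (0.143% of all did) and 2 of 11 had an unadjusted p under 0.05 (9.18% of all). For Cish on 1378586_at the lowest SA array, 4107, was above the highest RA array, 3988, a separation seen upward in 1.56% of all probe sets, with a difference of 0.84 (SE 0.31, adjusted p = 0.384, limma). Socs1 on 1371252_at overlapped, with a difference of 1.25 (SE 0.58, adjusted p = 0.528, limma).

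The change in susceptible rats minus the change in resistant rats was tested directly. No probe set of the array passed, members included (0% called, limma), and 4 of 11 members had an unadjusted p under 0.05, beside 6.9% of all probe sets. These were Socs1 on 1371252_at (3.09, SE 0.82, adjusted p = 0.349), Cish on 1378586_at (1.27, SE 0.44, adjusted p = 0.528) and on 1388233_at (1.97, SE 0.72, adjusted p = 0.565), and Socs2 (0.999, SE 0.42, adjusted p = 0.65). A call in SA against S beside none in RA against R thus did not amount to a difference between sub-groups that passed adjustment.

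Markers of several blood cell types changed as well. Among 9 neutrophil genes 5 rose and 1 fell in SA against S, and 3 rose in RA against R. The summed neutrophil signal ran between 870129 and 1245858 in SA, against 548145 to 703204 in S, and between 848939 and 1045276 in RA, against 520475 to 754540 in R. All 8 natural killer cell genes rose in both sub-groups. The summed signal of these was 343192 to 561078 in SA, against 195861 to 263549 in S, and 407467 to 589878 in RA, against 193626 to 319761 in R. Neutrophil and natural killer sums were thus higher after dosing in both sub-groups. Of 4 B cell genes 2 fell in SA against S (Cd22 and Blnk), of 10 T cell genes 1 fell (Cd4), and of 7 monocyte genes 1 rose (Fcgr1a) and 2 fell (Csf1r and Cx3cr1), while none of these passed in RA against R. B cell sums were 73018 to 94757 in SA, against 90671 to 120370 in S, and 79072 to 99015 in RA, against 96890 to 142728 in R. T cell sums were 590170 to 747532 in SA, against 710526 to 774982 in S, and monocyte sums 442314 to 586739 in SA, against 467860 to 509317 in S. No platelet or erythroid gene passed in either sub-group. Cish on 1378586_at correlated at -0.718 with the log2 B cell sum over the 20 arrays and at -0.53 within sub-groups.

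Over the 20 arrays the log2 neutrophil sum correlated at 0.795 with Socs3, 0.775 with Jak2, 0.579 with Cish on 1378586_at and 0.365 with Socs1 on 1371252_at, and within sub-groups, after subtraction of their means, at 0.413, 0.56, -0.24 and 0.02. The log2 natural killer cell sum correlated at 0.602 with Socs3, 0.69 with Jak2, 0.58 with Cish on 1378586_at and 0.317 with Socs1 on 1371252_at. Within sub-groups these values were -0.441, 0.556, -0.03 and 0.079. The part of cell composition in the members' changes was not tested.

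Liver transcripts were raised in some SA arrays. The summed signal of 7 hepatocyte genes was 16684, 3092, 26131, 2712 and 5930 in SA, against 1127 to 2616 in S, 1860 to 3117 in RA and 1903 to 2747 in R. Albumin (Alb) rose by 3.17 (adjusted p = 0.0161, limma) and Ahsg, the plasma protein fetuin-A, by 2.62 (adjusted p = 0.0136, limma) in SA against S, and 6 of the 7 genes were not above the bacterial controls on every array. The SA arrays of highest hepatocyte sum, replicates 1 and 3, also had the highest Jak2, Socs3 and Socs1 (1371252_at) signals of SA. Replicate 5, next at 5930, had the lowest Socs3 (3203, within the S range) and Cish (1378586_at, 4107) signals of SA. Its Jak2 and Socs1 (1371252_at) signals were 11348 and 999.6. Replicates 2 and 4 had hepatocyte sums within the RA range but above the highest S sum, 2616. Their Cish signals on 1378586_at were 4667 and 4236, above every S, RA and R array. On the same 2 arrays Socs1 on 1371252_at was 1660 and 910, against at most 888.9 in S, Socs3 7155 and 7936, against at most 4912, and Jak2 11273 and 12774, against at most 10723. Over the 20 arrays the log2 hepatocyte sum correlated at 0.703 with Jak2, 0.584 with Cish on 1378586_at, 0.535 with Socs3 and 0.49 with Socs1 on 1371252_at, and within sub-groups at 0.384, 0.05, 0.354 and 0.103. The part of liver RNA in the members' changes was not tested.

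**Figure D3:**
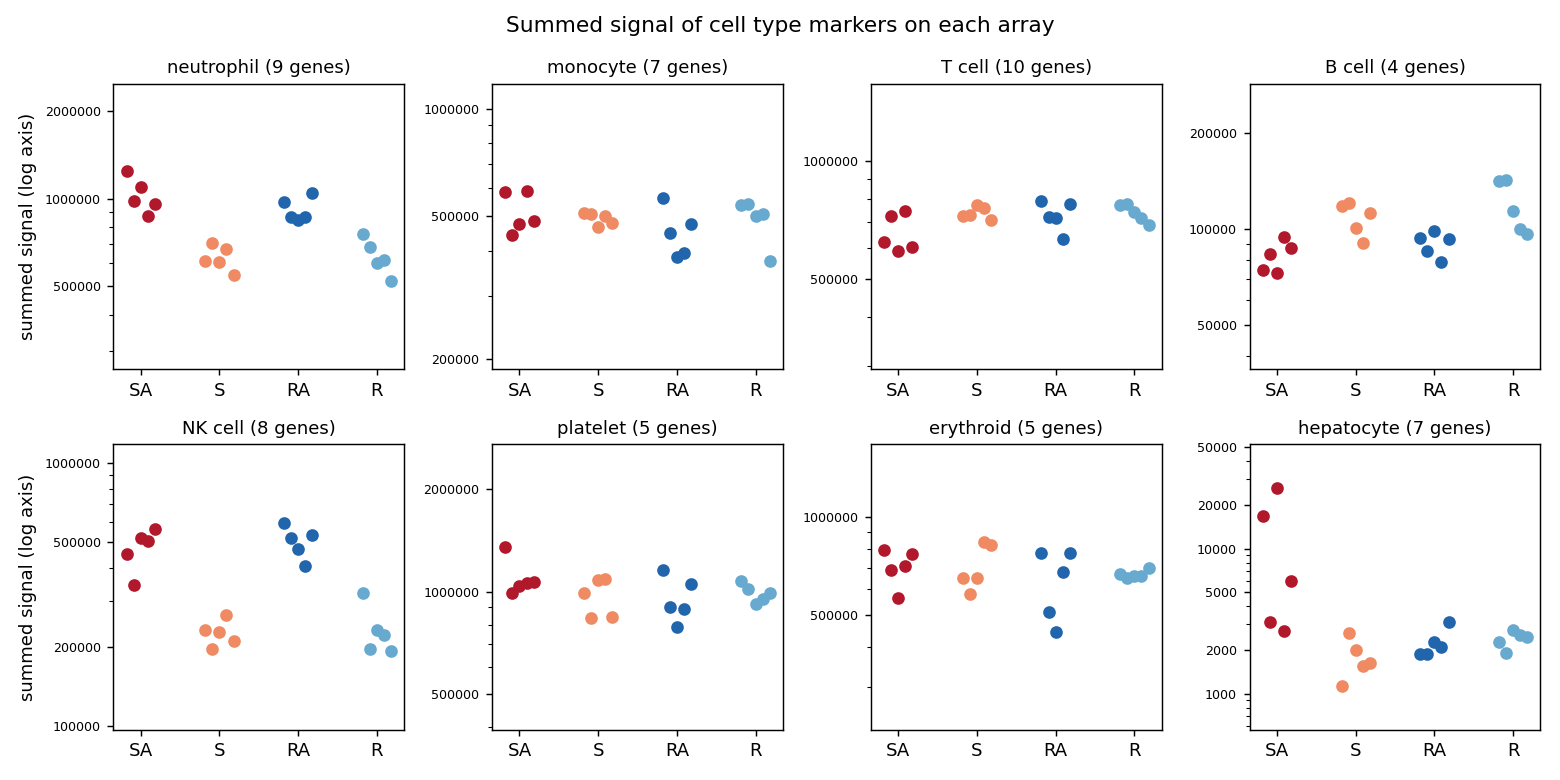
Summed signal of the marker genes of 8 cell types (log axis, array median = 1000) on the 5 arrays each of SA, S, RA and R. Neutrophil and natural killer cell sums are higher in SA than in S and in RA than in R, and the hepatocyte sum is 5930 or more on 3 SA arrays and no other.

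Upstream of the JAKs, the receptors changed in part in both sub-groups. Of 6 interferon and interleukin-10 receptor genes 3 rose in SA against S and 3 in RA against R, with list medians of 0.41 and 0.39. Il10rb, the shared chain of the interleukin-10 family, rose by 0.92 (adjusted p = 0.000482) in susceptible and 0.74 (adjusted p = 0.00308) in resistant rats, and Ifnar2, of the type I interferon receptor, by 0.67 (adjusted p = 0.00497) and 0.48 (adjusted p = 0.0444), all by limma. The interferon-gamma receptor chain Ifngr2 passed in susceptible rats (0.47, adjusted p = 0.0442, limma) and Ifngr1 in resistant rats (0.54, adjusted p = 0.0356, limma). In fits without a single array, the calls of Ifngr2 in susceptible rats and of Ifnar2 and Ifngr1 in resistant rats were lost in 13, 14 and 7 of 20 (adjusted p up to 0.125, 0.118 and 0.0956). Ifnar2 in susceptible rats lost its call with SA replicates 1 and 3 left out (0.48, adjusted p = 0.072).

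Among 6 genes of the common gamma chain family, the receptors that use Jak1 and Jak3, Il2rb rose by 0.91 in susceptible (adjusted p = 0.000489, limma) and 1.06 in resistant rats (adjusted p = 0.000171, limma), while Il4r fell by 0.79 (adjusted p = 0.00221, limma) and 1.03 (adjusted p = 0.000309, limma). Of 9 receptors that signal through Jak2, Csf3r, the granulocyte colony-stimulating factor receptor and also one of the neutrophil markers above, rose by 1.73 (adjusted p = 1.74e-05, limma) and 1.50 (adjusted p = 5.99e-05, limma), and Csf2rb rose by 0.75 in susceptible rats (adjusted p = 0.00543, limma), a call lost without SA replicates 1 and 3 (0.65, adjusted p = 0.0688). None of 5 gp130 family receptors passed in either sub-group. The brightest of them, Il6r and Il6st, changed by 0.33 and 0.12 in susceptible rats.

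Of 15 cytokine genes measured, oncostatin M (Osm), a gp130 cytokine of neutrophils and monocytes, rose by 1.26 in susceptible rats (adjusted p = 0.0187, limma), and lost its call without S replicate 3, without SA replicate 1 and without SA replicate 3 (adjusted p up to 0.0595), and without both SA arrays (0.89, adjusted p = 0.204). In resistant rats Il10 and Il15 were lower, by -3.99 (adjusted p = 0.000823, limma) and -0.70 (adjusted p = 0.00826, limma). Susceptible rats gave -1.84 (adjusted p = 0.0909, limma) and -0.24 (adjusted p = 0.411, limma). For neither gene did the difference between these changes pass (adjusted p = 0.635 and 0.702, limma). Il10 lost its call in resistant rats under the methods' t-test (adjusted p = 0.103). Il15 lost its call there under that test and with replicates blocked (adjusted p up to 0.0932). Il10 had log2 means of 6.06 in RA and 10.05 in R, the first of these below the highest bacterial control signal, and the extent of the fall is not settled.

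Of 6 STAT genes, 3 rose in susceptible and 0 in resistant rats. Stat2, which acts in type I interferon signalling, had log2 means of 15.22 in SA and 13.92 in S, a difference of 1.30 (adjusted p = 0.0018, limma). Stat3, which Socs3 restrains, rose by 0.68 (adjusted p = 0.00866, limma) and Stat5b, of the pair that switches on Cish, by 0.68 (adjusted p = 0.00988, limma). Without SA replicates 1 and 3 Stat2 kept its call (1.002, adjusted p = 0.0318), while Stat3 (0.49, adjusted p = 0.113) and Stat5b (0.53, adjusted p = 0.0865) lost theirs, as they did with only the SA and S arrays fitted and under the methods' t-test. In resistant rats the changes were -0.23, 0.18 and 0.51, and a difference between sub-groups of these changes did not pass for any gene.

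Among the other brakes, Socs6 was the only one of 3 further SOCS genes to change, falling by 0.57 in susceptible rats (adjusted p = 0.0161, limma), with -0.46 in resistant rats (adjusted p = 0.0566, limma). Of 13 phosphatases and other inhibitors, Usp18, which binds Ifnar2 and limits type I interferon signalling, rose by 1.88 (adjusted p = 0.0193, limma) and Pias4 by 0.70 (adjusted p = 0.0159, limma) in susceptible rats, and Pias3, an inhibitor of STAT3, by 0.54 in resistant rats (adjusted p = 0.0274, limma). Without SA replicates 1 and 3, Socs6 (-0.47, adjusted p = 0.155) and Usp18 (1.49, adjusted p = 0.181) lost their calls and Pias4 kept it (0.77, adjusted p = 0.0471). Pias3 lost its call in 6 of 20 fits without a single array (adjusted p up to 0.078). The other 10, the phosphatases among them, passed in neither sub-group.

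Downstream, 6 of 16 STAT target genes rose in susceptible rats and none fell, with a list median of 0.62, while in resistant rats 2 rose and 2 fell, with a median of 0.00. Cebpd, a STAT3 target of the acute phase, rose by 2.19 (adjusted p = 5.84e-05, limma) in susceptible and 1.97 (adjusted p = 0.000172, limma) in resistant rats, and Bcl6 by 1.02 (adjusted p = 0.000369, limma) and 1.13 (adjusted p = 0.000192, limma). The interferon-gamma target Gbp2 rose by 2.03 in susceptible rats (adjusted p = 0.000144, limma), where resistant rats gave -0.13. The kinase gene Pim2, a STAT5 target, rose by 0.74 (adjusted p = 0.00414, limma) in susceptible rats. In resistant rats Irf7 fell by 1.14 (adjusted p = 0.0431, limma) and Cxcl10 fell by 2.25 (adjusted p = 0.0488, limma), calls that were lost in 12 and 14 of 20 fits without a single array (adjusted p up to 0.115 and 0.132). Over all probe sets tested, 3.86% were called higher in susceptible and 2.51% higher and 2.6% lower in resistant rats. These shares are not a like background, since the lists hold only the brightest probe set of each gene. A fit with 1 probe set per gene, among at most 14217 genes, called 868 higher in susceptible rats. In resistant rats it called 547 higher and 411 lower.

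After dosing, 5 of these pathway genes were higher in SA than in RA by the same test (0.124% of all probe sets were called higher). With 1 probe set per gene, 50 of at most 14217 genes were called higher. Cxcl10 differed by 3.71 (adjusted p = 0.0226), Usp18 by 2.61 (adjusted p = 0.0266), Gbp2 by 1.99 (adjusted p = 0.00967), Stat2 by 1.34 (adjusted p = 0.0196) and Irf1 by 0.91 (adjusted p = 0.00967), and Irf1 is named here after its values had been seen. Irf7 and Irf9 from the same list did not pass, at 1.26 (adjusted p = 0.125) and 0.90 (adjusted p = 0.0854). None of the 5 remained called with SA replicates 1 and 3 left out.

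**Figure D4:**
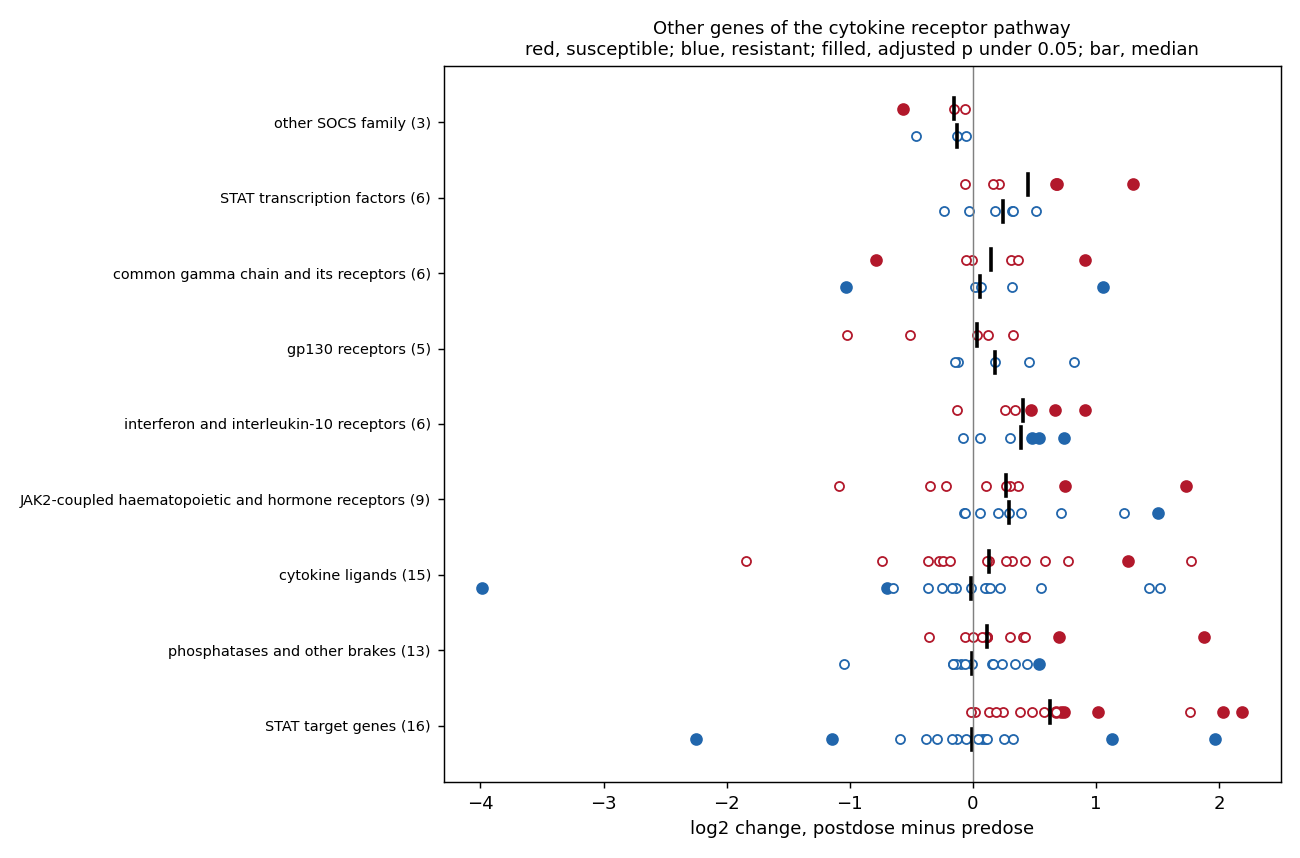
Log2 change, postdose minus predose, of the other genes of the pathway by list (number of genes in brackets), in susceptible (red, SA minus S) and resistant rats (blue, RA minus R). Filled points passed an adjusted p of 0.05 and bars are list medians. The STAT target median is 0.62 in susceptible and 0.00 in resistant rats.

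The genes whose log2 signal followed the members most closely were sought among 8922 genes of mean signal at or above the array median, over the 20 arrays, which share the split by dosing. Jak2 was nearest to Xdh (Pearson r = 0.916), Tmem71 (0.913), Card19 (0.907) and Gng5 (0.907). Socs3 was nearest to Ppp1r3d (0.896), Ap1ar (0.89), Gk (0.886) and Nipa2 (0.878). Cish on 1378586_at was nearest to Plpp5 (0.896), Ccdc51 (0.859), Pim2 (0.851) and Mocos (0.847), and on 1388233_at to Spata1 (0.789), Foxred1 (0.775), Ugcg (0.775) and Akap1 (0.753). Socs1 on 1371252_at was nearest to Ptger2 (0.814), Plpp5 (0.76), Foxred1 (0.749) and Bcs1l (0.73), so that Plpp5 and Foxred1 stood among the 4 nearest of both Socs1 and Cish. On 1375568_at Socs1 had other neighbours, led by Polr3b (0.675), Sh3bp1 (0.653), Znhit2 (0.645) and Get1 (0.636).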

How the data were processed

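The authors deposited 1 linear intensity per probe set and array, with array medians of 187.4 to 223, and the software behind these signals is not given in the sources used here. Following the methods, every array was brought to a median of 1000 over 31042 probe sets (57 controls excluded) and log2 was taken. Probe sets that stayed under 100 throughout a fit were dropped (30416 kept for S against R, 30747 otherwise). The platform's annotation gave 20826 probe sets 1 symbol, 436 several and 9780 none.

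Tests used the package limma, version 3.58.1, under R 4.3.3 (lmFit, eBayes, Benjamini-Hochberg over all probe sets, adjusted p under 0.05), S against R on the 10 predose arrays and the rest on all 20. The labels number the 5 samples of a group as biological replicates and do not say which predose and postdose arrays are of 1 rat. Precision is limited by the number of arrays. Same-numbered arrays of a sub-group deviated together in 6 of 10 pairs (r over 0.1, range -0.164 to 0.196 over 15257 probe sets). This does not settle whether the numbers pair samples, and they were not taken to do so. The main fits thus treated the arrays as independent, although by the methods the same 10 rats gave blood at both times.

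The members and lists were chosen with earlier results of these data known. Each listed gene was represented by its brightest probe set. None of the 4 interleukin-12 and interleukin-13 receptor genes was matched by symbol. Named were all member probe sets, up to 6 genes per list past the threshold in either postdose comparison by size of change (or the 2 brightest), and the 4 genes most like each risen member. On simulated data built from the arrays' own spread, 52 of 56 log2 changes of 2 and 41 of 49 changes of 1 were recovered in SA against S at mean signals at or above 1000, but 14 of 46 and 2 of 49 below, and 5 of 114 calls were false.

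Alternatives were quantile normalization, deposited values without rescaling, no filter, a filter at 200, 1 probe set per gene, only the arrays compared, the methods' t-test with adjustment, a replicate block and leaving out each array. The counts for the pathway lists, the fit without SA replicates 1 and 3, and the search for the interferon-stimulated response element were added once the data had been seen. Plots come from matplotlib 3.10.9 (Python 3.11.15).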

Additional observations from a re-analysis of the deposited data

Results flagged for a closer look

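Of 44 sets of 5 arrays (11 probe sets in 4 sub-groups), 3 held an array far from the other 4, where the gap to the nearest divided by the whole range is above 0.71. Chance marks about 1 in 20 such sets. Jak1 on 1384060_at was 20032 in S replicate 5, with the others between 25350 and 26917 (gap over range 0.797). Jak3 was 4915 in RA replicate 4, with the others between 5935 and 6306 (0.756). Socs3 was 4912 in S replicate 2, with the others between 2115 and 2687 (0.716), and it is the only S array above the lowest SA array, 3203. No member's change differed between sub-groups by the test of the difference.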

How the results depend on the processing

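The 5 member calls in SA against S came down to 1, Cish on 1378586_at, in 4 settings: only the arrays compared, the methods' t-test with adjustment, the replicate block, and SA replicates 1 and 3 left out together. Quantile normalization, values as deposited, no filter and a filter at 200 left 5, and 1 probe set per gene 4. Leaving out single arrays gave 2 to 5 member calls, with 2 without S replicate 3, SA replicate 1 or SA replicate 3 and 3 without S replicate 2, 4 or 5. Both Cish probe sets kept their call without any 1 array (adjusted p up to 0.0149 and 0.0424). Jak2 lost it without S replicate 2, 3, 4 or 5 or SA replicate 1 or 3 (over all these fits 0.34 to 0.44, adjusted p up to 0.103), Socs1 on 1371252_at without S replicate 2 or 3 or SA replicate 1 or 3 (1.96 to 2.75, up to 0.0583) and Socs3 without S replicate 1, 3, 4 or 5 or SA replicate 1 or 3 (1.17 to 1.74, up to 0.0787). In RA against R the member count stayed at 0, except for 1 (Socs3, adjusted p = 0.0483) without SA replicate 5, and ranged from 0 to 1. The cause of these shifts was not tested.

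Over all probe sets, the 2048 calls in SA against S became 910 with only the arrays compared, 578 by the methods' t-test, 1290 with the block and 730 without SA replicates 1 and 3 (1332 to 2270 without single arrays), and the 1570 in RA against R became 958 with 1 probe set per gene, 968, 729 and 970 in the first 3 of these settings (967 to 1661). The single call in S against R became 0 with 1 probe set per gene, with all 20 arrays in the fit and by the methods' t-test (0 to 2), and the 44 in SA against RA became 73 by quantile normalization, 0 by the methods' t-test and 5 without SA replicates 1 and 3 (7 to 89). The change of changes had 0 calls (0 to 2). Fits with 1 probe set per gene tested at most 14217 genes, so their counts cannot be set directly against those over all probe sets. Pathway genes called fell to 12, 11 and 12 of 20 in SA against S with only the arrays compared, by the methods' t-test and without SA replicates 1 and 3 (16 to 22 without single arrays). They fell to 7 by the methods' t-test and 8 with the block, of 13, in RA against R (8 to 13). In SA against RA 0 of 5 remained by the methods' t-test and without SA replicates 1 and 3 (2 to 6), and the change of changes ranged from 0 to 1.

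The replicate number as a block gave 1 member call in SA against S and 0 in RA against R. Whether same-numbered arrays are of 1 rat is not known. Among the 5 postdose arrays of its sub-group, a predose array correlated best with its own number in 5 of 10 pairs.

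Signs turned without single arrays where differences were near 0: SA against S for Jak1 on 1383478_at (-0.0624 to 0.0137) and Socs2 (-0.068 to 0.27); S against R for Jak1 on 1383478_at (-0.0068 to 0.0713) and 1384060_at (-0.11 to 0.033), Tyk2 (-0.0743 to 0.10) and Socs1 on 1375568_at (-0.40 to 0.43); SA against RA for Socs1 on 1375568_at (-0.30 to 0.30) and Socs3 (-0.18 to 0.39); and the change of changes for Jak1 on 1384060_at (-0.0944 to 0.04999), Jak3 (-0.0273 to 0.13) and Socs1 on 1375568_at (-0.51 to 0.37). Without SA replicates 1 and 3 they turned for Socs2 in SA against S (-0.23), for Jak3 (0.0289), Socs1 on 1375568_at (0.18) and Socs3 (-0.36) in SA against RA, and for Socs1 on 1375568_at (0.25) and Socs3 (-0.14) in the change of changes. Signals below the median of 1000, as on 1375568_at and on many arrays of 1371252_at and 1388233_at, limit what these arrays can show.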

Other observations

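Within sub-groups, after subtraction of their means, the member probe sets differed in how far they varied together over the 20 arrays. Kinase pairs ran between 0.395 (Jak2 with Jak3) and 0.73 (the Jak1 probe sets with each other). Jak1 on 1383478_at correlated at 0.636 with Jak3 and 0.574 with Jak2, and on 1384060_at at 0.592 with Tyk2. Socs2 correlated at 0.497 with Jak2 and 0.478 with Jak1 on 1384060_at, within the range of the kinase pairs. Below that range it stood at 0.26 with Tyk2, 0.0836 with Jak1 on 1383478_at and -0.0231 with Jak3. Socs1 on 1371252_at correlated at 0.359 with Jak2 and at 0.676 and 0.639 with the Cish probe sets, whereas Socs3 lay at -0.20 and -0.28 to them and at -0.13 to Socs1. These are descriptions over arrays that share scaling and blood composition.

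Of the cell marker sums, set against the members in the same way, some ran close to single kinase probe sets. Jak1 on 1383478_at correlated at 0.757 with the monocyte sum and 0.752 with the platelet sum. It also stood at 0.665 with the T cell, 0.541 with the neutrophil, 0.513 with the natural killer cell and 0.244 with the B cell sum. It thus did not follow 1 cell type alone. On 1384060_at Jak1 gave 0.724 with the monocyte and 0.473 with the platelet sum. Jak3 correlated at 0.687 with the T cell sum. Tyk2 correlated at 0.62 with the monocyte sum.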
